A study of Mus musculus with 9 samples.

Results

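The genes described here encode the antimicrobial and oxidase defence of the intestinal lining: Nos2, Duox2, Duoxa2, Nox1, Lcn2, Saa1, Pigr, Il18 and Retnlb. They were measured in organoids of mouse small intestine, which are closed epithelial cultures grown from intestinal tissue, on the Affymetrix Mouse Genome 430 2.0 array. The 9 arrays fell into 3 groups of 3. The first group received TGF-beta1 ligand at 0.04 ng/mL, the second an inhibitor of TGF-beta receptors 1 and 2 at 20 uM, and the third nothing. Treatment ran for 5 days from day 1 of a culture of 6 days, while the sources used here name neither the compound nor a vehicle nor the mouse strain. The members were every probe set (a group of short probes read as 1 value) annotated to these 9 genes. That gave 9 probe sets for 7 genes, of 45101 probe sets on the array. The annotation used here names no probe set for Duox2 or Nox1, so neither gene was analysed here. The labels do not say whether replicates came from separate cultures, so p-values reflect the array-to-array spread alone, and that spread may be technical.

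The intestinal epithelium defends itself in several ways. Oxidases of the NOX and DUOX families pass electrons across the membrane to make superoxide or hydrogen peroxide, and they need partners: DUOXA2 carries DUOX2 to the cell surface, while NOX1 works with NOXO1, NOXA1 and the membrane subunit encoded by Cyba. Nos2 encodes the inducible nitric oxide synthase. Lcn2 encodes lipocalin 2, which withholds iron-binding siderophores from bacteria, Saa1 encodes serum amyloid A1, an acute-phase protein, and Retnlb encodes RELM-beta, a protein secreted by goblet cells. Pigr encodes the receptor that carries polymeric IgA from the basal side of the epithelium into the lumen. Il18 encodes a cytokine of the IL-1 family that is stored as a precursor and cut by caspase-1, so its RNA level does not tell how much active cytokine is released. TGF-beta is known in the gut as a growth-restraining and anti-inflammatory signal.

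Among these genes, Il18 and Pigr were bright in every group. The windows from 250 bases before to 50 bases after the annotated start of both genes are shown because they are the members with a call. Neither Pigr call is firm, as described below. The letters of both windows are lower case except at motif matches. Both windows were taken from RefSeq on GRCm38.p6. The Il18 window is chr9:50554450-50554749 and the Pigr window chr1:130826434-130826733, both on the plus strand. Capitals mark a match to any of 4 motifs searched on both strands: the NF-kB motif, the STAT motif TTCNNNGAA, the AP-1 motif TGANTCA and the SMAD motif CAGAC.
Il18: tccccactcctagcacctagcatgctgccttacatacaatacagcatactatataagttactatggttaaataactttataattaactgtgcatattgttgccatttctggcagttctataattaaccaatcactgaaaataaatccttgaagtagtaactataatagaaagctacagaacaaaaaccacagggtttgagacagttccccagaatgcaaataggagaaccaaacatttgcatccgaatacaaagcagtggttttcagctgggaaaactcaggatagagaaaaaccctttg
Pigr: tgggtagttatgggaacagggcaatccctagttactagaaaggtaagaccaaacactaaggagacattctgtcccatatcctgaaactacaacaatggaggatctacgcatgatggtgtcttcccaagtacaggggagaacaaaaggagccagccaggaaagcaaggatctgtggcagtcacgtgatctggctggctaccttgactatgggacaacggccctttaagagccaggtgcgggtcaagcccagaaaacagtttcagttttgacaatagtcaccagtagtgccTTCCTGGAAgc
The Pigr window held 1 STAT match, which starts 39 bases after the start base and reads the same on both strands. The Il18 window held none of the 4 motifs, which says only that these letters are not in these 300 bases. Of all 32851 windows of this length, 8.46% held the NF-kB motif, 8.30% the STAT motif, 7.81% the AP-1 motif and 49.6% the SMAD motif. A match is a description of the letters and not a measured binding site. A window was found for 7 of the 9 members.

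The members split into bright, dim and very dim probe sets. Values are MAS5 signals, a linear brightness summarised over the probes of a set, and a probe set was tested where it passed the 40th percentile of its array on at least 3 of the 9 arrays. This filter level was a signal of 25.9 to 32.0. Of the 9 member probe sets 4 passed, and they stand for 3 genes: Il18, Pigr and Duoxa2. The other 5 probe sets, for Nos2, Lcn2, Saa1 and Retnlb, had 45 values of which 41 were at or below 16 and 1 lay above the filter level.

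**Figure D1:**
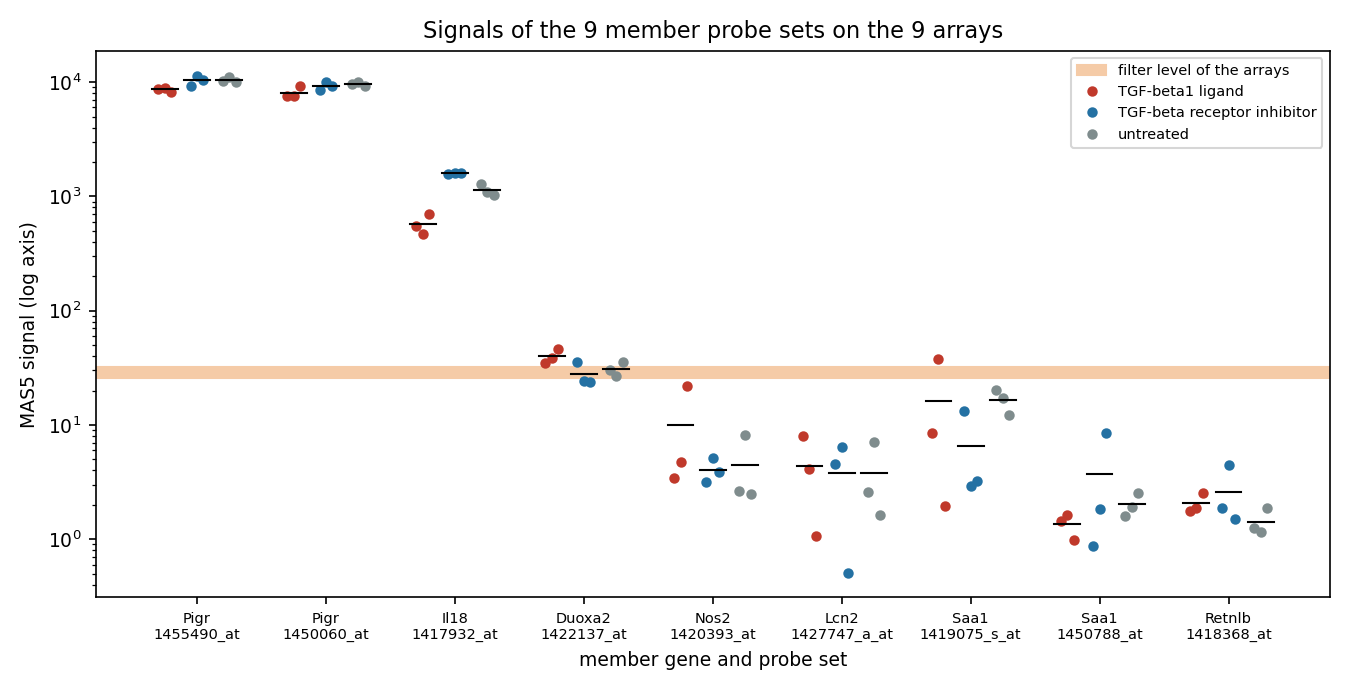
MAS5 signal (log axis) of the 9 member probe sets on the 9 arrays. Points are arrays, grouped as ligand, inhibitor and untreated, black bars are group means (n = 3 arrays), and the shaded band is the filter level of 25.9 to 32.0. Both Pigr probe sets and Il18 lie far above the band, Duoxa2 lies at it, and the other 5 probe sets lie below it apart from 1 Saa1 value of 37.8.

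Il18 fell with the ligand and rose with the inhibitor. Its signals were 552, 467 and 698 in ligand arrays, 1584, 1614 and 1607 in inhibitor arrays, and 1274, 1086 and 1033 in untreated arrays. No array of 1 group reached the range of another. The order of the groups was therefore the same in every pair of arrays, with the inhibitor highest and the ligand lowest.

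Group means for Il18 were 572 ± 117 in ligand, 1601 ± 15.7 in inhibitor and 1131 ± 127 in untreated arrays (SD, n = 3 each). With 16 added to each signal before the logarithm, the ligand lowered Il18 by a log2 change of -0.98 ± 0.12 (SE), or 1.97-fold, with a limma adjusted p of 6.07e-05. The inhibitor raised it by 0.50 ± 0.12, or 1.42-fold, with a limma adjusted p of 0.00353. Ligand against inhibitor gave -1.48 ± 0.12, or 2.79-fold lower, with a limma adjusted p of 2.33e-07. The same 3 untreated arrays serve both comparisons with untreated. Among the 12941 genes tested, 2.79% had a larger size of change than Il18 with the ligand, and 24.0% with the inhibitor. Each of the 3 Il18 calls held in all 20 alternatives of processing.

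Other measures moved with the groups as well. Of the leukocyte markers 10 of 17 lay below the filter, Ptprc among them, and their summed signal was 409 to 544 in ligand, 589 to 691 in inhibitor and 459 to 533 in untreated arrays, so it was highest where Il18 was highest. The log2 ratio of 3 prime to 5 prime signal of beta-actin was 0.40 to 0.58 in ligand, 0.18 to 0.24 in inhibitor and 0.37 to 0.43 in untreated arrays. Epithelial markers moved in both directions. Group means of Krt20 and Vil1 had the order of Il18, those of Lgr5 and Olfm4 the reverse. In ligand, inhibitor and untreated arrays Krt20 averaged 2058, 4974 and 2333, and Vil1 4993, 7858 and 5503. Lgr5 averaged 4236, 1574 and 2542, and Olfm4 14648, 819 and 12861. The part of all these measures in the Il18 and Pigr results was not tested. In such bulk samples fewer cells of a type and less RNA per cell cannot be told apart.

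Pigr, the IgA receptor, fell slightly with the ligand on 1 of its 2 probe sets. The brighter of them read 8740.4, 8974 and 8273 in ligand arrays, 9229, 11409 and 10487.5 in inhibitor arrays, and 10299.6, 11180.0 and 10117 in untreated arrays. All 3 ligand arrays lay below all the others. Inhibitor arrays spanned a range that holds all 3 untreated arrays.

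On this probe set Pigr averaged 8663 ± 357 in ligand, 10375 ± 1094 in inhibitor and 10532 ± 568 in untreated arrays (SD, n = 3 each). Ligand against untreated gave a log2 change of -0.28 ± 0.09, or 1.21-fold lower, with a limma adjusted p of 0.0388. Ligand against inhibitor gave -0.26 ± 0.09 with a limma adjusted p of 0.0288. Inhibitor against untreated gave -0.03 ± 0.09, with a 95% interval of -0.22 to 0.17 and a limma adjusted p of 0.844. Neither Pigr call is firm. The ligand call against untreated was lost with no filter (limma adjusted p 0.0725) and with no intensity trend (0.0583). It was also lost without untreated replicate 1 (0.0826), 2 (0.143) or 3 (0.0621), without ligand replicate 1 (0.0794), 2 (0.0619) or 3 (0.0689) and without inhibitor replicate 3 (0.0612), and the 20 alternatives gave limma adjusted p-values of 0.0218 to 0.143. The call of ligand against inhibitor was lost without inhibitor replicate 2 (0.133) or 3 (0.0853), without ligand replicate 1 (0.0568) or 3 (0.0565), with the 2-group fit (0.0549) and with no filter (0.0540), the 20 alternatives spanning 0.00353 to 0.133.

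The other Pigr probe set had the same direction without a call. It read 7578, 7590.5 and 9177.5 in ligand arrays, 8619, 9935 and 9202 in inhibitor arrays, and 9671, 9932 and 9174 in untreated arrays. Ligand replicate 3 lay just inside the untreated range, so the groups overlapped. In the fit over all 23887 named probe sets above the filter, its ligand change against untreated was -0.25 ± 0.09 (limma adjusted p 0.0867), beside -0.28 ± 0.09 for the brighter probe set (limma adjusted p 0.0457). Without ligand replicate 3 the change of the dimmer probe set was -0.34 with a limma adjusted p of 0.0092.

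**Figure D2:**
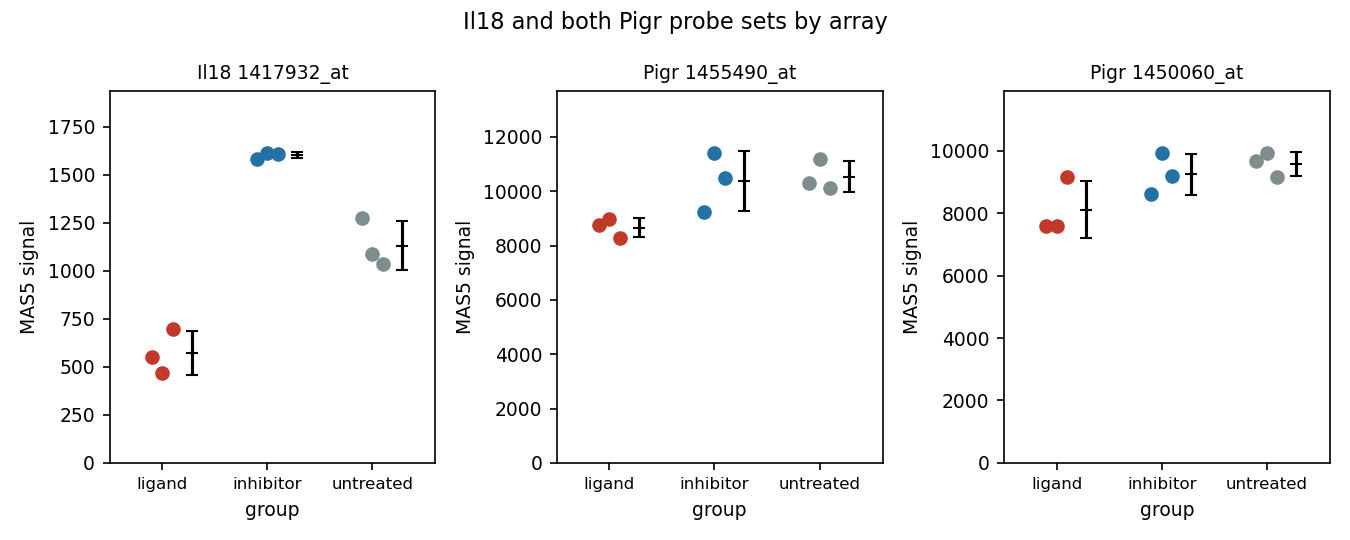
MAS5 signal of Il18 and of both Pigr probe sets, by group, with the axes starting at 0. Points are arrays and the bars beside them are mean ± SD (n = 3 arrays). The Il18 groups are apart, with ligand arrays at 467 to 698 and inhibitor arrays at 1584 to 1614, while the Pigr groups differ by a small part of their level.

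Duoxa2, the maturation factor of DUOX2, had signals at about the filter level and no call. It read 34.7, 38.7 and 45.9 in ligand arrays, 35.3, 24.2 and 23.5 in inhibitor arrays, and 30.5, 26.6 and 35.7 in untreated arrays. The ligand arrays were the highest on average, at 39.8 ± 5.7 against 27.7 ± 6.6 in inhibitor and 30.9 ± 4.5 in untreated arrays (SD, n = 3 each), but they overlapped both groups. The log2 change with the ligand was 0.25 with a 95% interval of -0.16 to 0.66 and a limma adjusted p of 0.39, so a change of 1.58-fold upward lies within the interval. Inhibitor against untreated gave -0.11 (interval -0.52 to 0.30, limma adjusted p 0.68). Ligand against inhibitor gave 0.36 ± 0.19 (limma adjusted p 0.131), and 0.0382 with no intensity trend, the 19 alternatives spanning 0.0382 to 0.425. Duoxa2 lies at chr2:122298900-122302885, next to Duox2 at chr2:122279246-122298740 (RefSeq, GRCm38.p6).

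**Figure D3:**
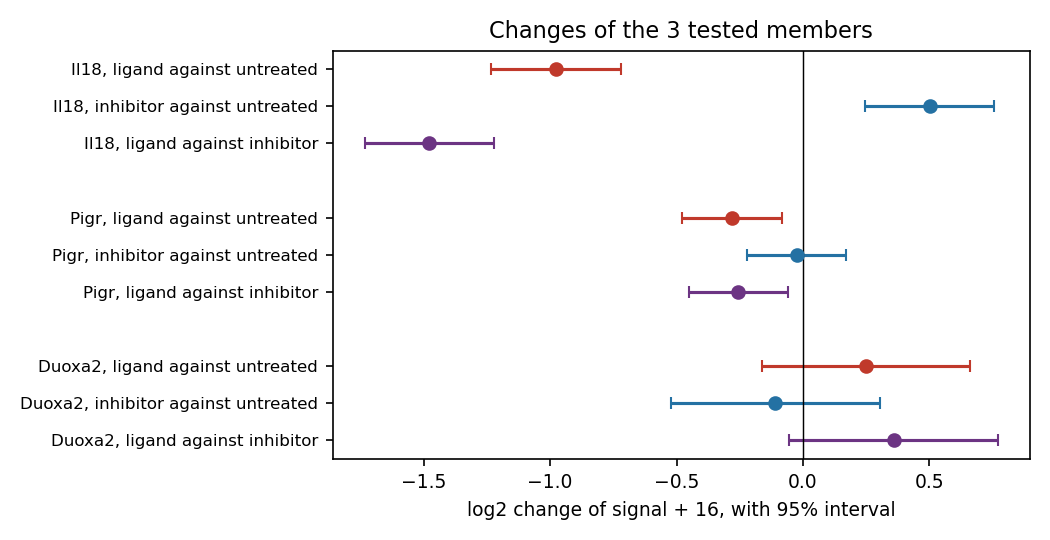
Log2 change of signal + 16 of the 3 tested members in each of the 3 comparisons. Points are estimates and bars 95% intervals from the fit over 9 arrays. The Il18 intervals lie on opposite sides of 0 for ligand and inhibitor, the Pigr ligand intervals lie just below 0, and all 3 Duoxa2 intervals cross 0.

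Read against all genes, the members' calls are few of few. With the ligand 2 of 3 tested members changed, both lower, where 24.1% of all 12941 genes changed, 14.8% higher and 9.37% lower. With the inhibitor 1 of 3 changed, upward, where 45.1% of all genes changed, 21.2% higher and 23.9% lower. For ligand against inhibitor 2 of 3 changed, both lower, where 55.5% changed, 32.6% higher and 23% lower. In the fit over probe sets, 2 of the 4 member probe sets changed with the ligand (17.6% of all probe sets), 1 with the inhibitor (37.8%) and 2 between ligand and inhibitor (49.4%). Groups that do not overlap, with the ligand lower, were seen for 2 of 3 members against untreated, where 14.5% of all genes did so, and for 2 of 3 against inhibitor, where 25.5% did. With the inhibitor 1 of 3 lay wholly above untreated, where 26.7% of all genes did.

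The nitric oxide synthase gene Nos2 was very dim. Its signals were 3.46, 4.70 and 21.9 in ligand arrays, 3.17, 5.18 and 3.83 in inhibitor arrays, and 2.64, 8.15 and 2.48 in untreated arrays. Ligand replicate 3 stood above the other 8 arrays but under the filter level.

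Saa1 was read by 2 probe sets that disagreed in level. On the first the signals were 8.53, 37.8 and 1.93 in ligand arrays, 13.3, 2.90 and 3.24 in inhibitor arrays, and 20.1, 17.4 and 12.3 in untreated arrays. The ligand arrays spanned the whole range. The transcript named for this probe set is a Saa2 transcript in the RefSeq gene table, and Saa1 and Saa2 are near-identical copies, so its gene is uncertain. On the second, whose transcript is Saa1 in that table, signals were 0.99 to 1.61 in ligand, 0.875 to 8.51 in inhibitor and 1.60 to 2.54 in untreated arrays.

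Lcn2 and Retnlb also lay below the filter level on every array. Lcn2 had signals of 1.08 to 7.92 in ligand, 0.509 to 6.39 in inhibitor and 1.64 to 7.07 in untreated arrays. Retnlb had 1.77 to 2.51 in ligand, 1.51 to 4.44 in inhibitor and 1.15 to 1.88 in untreated arrays. In these 5 very dim probe sets no change was detectable at this signal, which does not show that the RNAs were absent or alike. When all probe sets were fitted with no filter, limma called 0 of the 5 in any of the 3 comparisons, 0 had an unadjusted p under 0.05, and the smallest unadjusted p was 0.13.

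Among the partners of the oxidases, Noxo1 and Cyba changed with both treatments. Noxo1, which organises the NOX1 complex, had 1484 ± 95.1 in ligand, 382 ± 36.9 in inhibitor and 798 ± 40.9 in untreated arrays (SD, n = 3 each). It rose with the ligand by a log2 change of 0.88 ± 0.08 (limma adjusted p 8.27e-06) and fell with the inhibitor by 1.04 on that scale (limma adjusted p 6.01e-07). Cyba, the membrane subunit shared by several NOX enzymes, had 2037 ± 174 in ligand, 686 ± 40.2 in inhibitor and 1074 ± 147 in untreated arrays, a change of 0.92 ± 0.10 with the ligand (limma adjusted p 2.19e-05) and of -0.63 ± 0.10 with the inhibitor (limma adjusted p 0.000163). Groups did not overlap for either gene in any comparison. Such separation was seen for 38.6% of all genes for ligand against untreated, 55.9% for inhibitor against untreated and 60.6% for ligand against inhibitor. No alternative changed a call of Noxo1 or Cyba. Rac1, a small GTPase that activates NOX1, was lower in ligand than in inhibitor arrays (-0.26 ± 0.08, limma adjusted p 0.0139, and 0.0737 without ligand replicate 2).

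Of the 16 genes on the list of NADPH oxidases and partners 11 had a named probe set and 6 were tested. With the ligand 2 of the 6 were higher and 0 lower, with a median log2 change of 0.12 beside 0.05 over all genes. With the inhibitor 0 were higher and 2 lower, with a median of -0.03 beside -0.01. Shares of all genes were 14.8% higher and 9.37% lower with the ligand, and 21.2% and 23.9% with the inhibitor. Duox1 and its maturation factor Duoxa1, the neighbours and relatives of the members, lay below the filter, with highest signals of 29.5 and 22.0.

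Around Il18, the genes of its maturation moved in mixed directions. Casp1, the protease that cuts pro-IL-18, had 1506 ± 45.6 in ligand, 2094 ± 56.9 in inhibitor and 1883 ± 153 in untreated arrays (SD, n = 3 each). It fell with the ligand by 0.32 on the log2 scale (limma adjusted p 0.00531), while the inhibitor change of 0.15 ± 0.07 did not pass (limma adjusted p 0.0917) and did when untreated replicate 1 was left out (0.0308), the alternatives spanning 0.0308 to 0.317. Casp4, an inflammatory caspase that senses lipopolysaccharide, had the order of Il18, with 243 ± 21.9 in ligand, 772 ± 33.7 in inhibitor and 343 ± 23.8 in untreated arrays. It fell with the ligand (-0.47 ± 0.09, limma adjusted p 0.00162) and rose with the inhibitor (1.14 ± 0.09, limma adjusted p 4.32e-07). Gsdmd, whose product forms the membrane pore for release, went the opposite way, higher with the ligand (0.75 ± 0.11) and lower with the inhibitor (-0.41 ± 0.11). Il18bp, which encodes a secreted inhibitor of IL-18, was dim, with 19.1 ± 8.2 in ligand, 45.3 ± 24.7 in inhibitor and 24.1 ± 13.1 in untreated arrays, and did not pass against untreated (limma adjusted p 0.774 with the ligand and 0.146 with the inhibitor).

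Il1rn, the IL-1 receptor antagonist, was higher with both treatments, by 1.13 ± 0.16 with the ligand and 1.99 ± 0.16 with the inhibitor. Naip5, a sensor of bacterial flagellin, rose with the inhibitor (0.88 ± 0.07), and its near-identical Naip relatives may share probes. Naip2 (0.61 ± 0.08) and Naip6 (0.62 ± 0.08) rose as well, and each is counted apart below. Of 21 genes on the inflammasome and IL-18 list 15 were tested, Il18 among them. With the ligand 2 were higher and 3 lower, with a median log2 change of -0.02 beside 0.05 over all genes. With the inhibitor 8 were higher and 3 lower, with a median of 0.50, the value of Il18 itself, beside -0.01. Without Il18 the counts were 7 and 3 of 14. Nlrp10 is among those higher, at 32.7 ± 1.9 in inhibitor, 14.3 ± 7.2 in ligand and 15.4 ± 5.3 in untreated arrays. It passed the filter through the inhibitor arrays, where it was high, so its call is no support. Il1b is also among those higher (0.43 ± 0.16, limma adjusted p 0.0411), a call lost in 9 of 19 alternatives. Among all genes 14.8% were higher and 9.37% lower with the ligand, and 21.2% and 23.9% with the inhibitor.

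Beside Nos2, the list of nitric oxide and arginine use holds genes that supply or compete for its substrate. Arg2, an arginase, had 1346 ± 78.3 in ligand, 4026 ± 133 in inhibitor and 4444 ± 773 in untreated arrays (SD, n = 3 each), a change of -1.70 ± 0.11 with the ligand. Its inhibitor change of -0.13 ± 0.11 did not pass (limma adjusted p 0.365) and did without untreated replicate 3 (0.0156). Arg1, the other arginase, had signals of 56.7 ± 5.7 in ligand, 9.86 ± 6.7 in inhibitor and 20.8 ± 4.9 in untreated arrays. It passed the filter through the ligand arrays, where it was high, so no test of it is given. Slc7a2, an arginine transporter, fell with the inhibitor (-1.51 ± 0.13), while Gch1, which makes a cofactor of nitric oxide synthases, rose (0.80 ± 0.09). Both Ddah enzymes degrade an endogenous inhibitor of these synthases. Ddah1 rose with the receptor inhibitor (0.60 ± 0.07) and Ddah2 with the ligand (0.87 ± 0.13). Of the 13 genes on the list of nitric oxide and arginine use 12 were tested, and Nos2 was the 1 below the filter. With the ligand 2 were higher, Ddah2 and Arg1, and 1 lower (median 0.04 beside 0.05). The Arg1 call is part of that count but is no support, for the reason given. With the inhibitor 4 were higher and 2 lower (median 0.05 beside -0.01). Shares of all genes were 14.8% higher and 9.37% lower with the ligand, and 21.2% and 23.9% with the inhibitor.

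**Figure D4:**
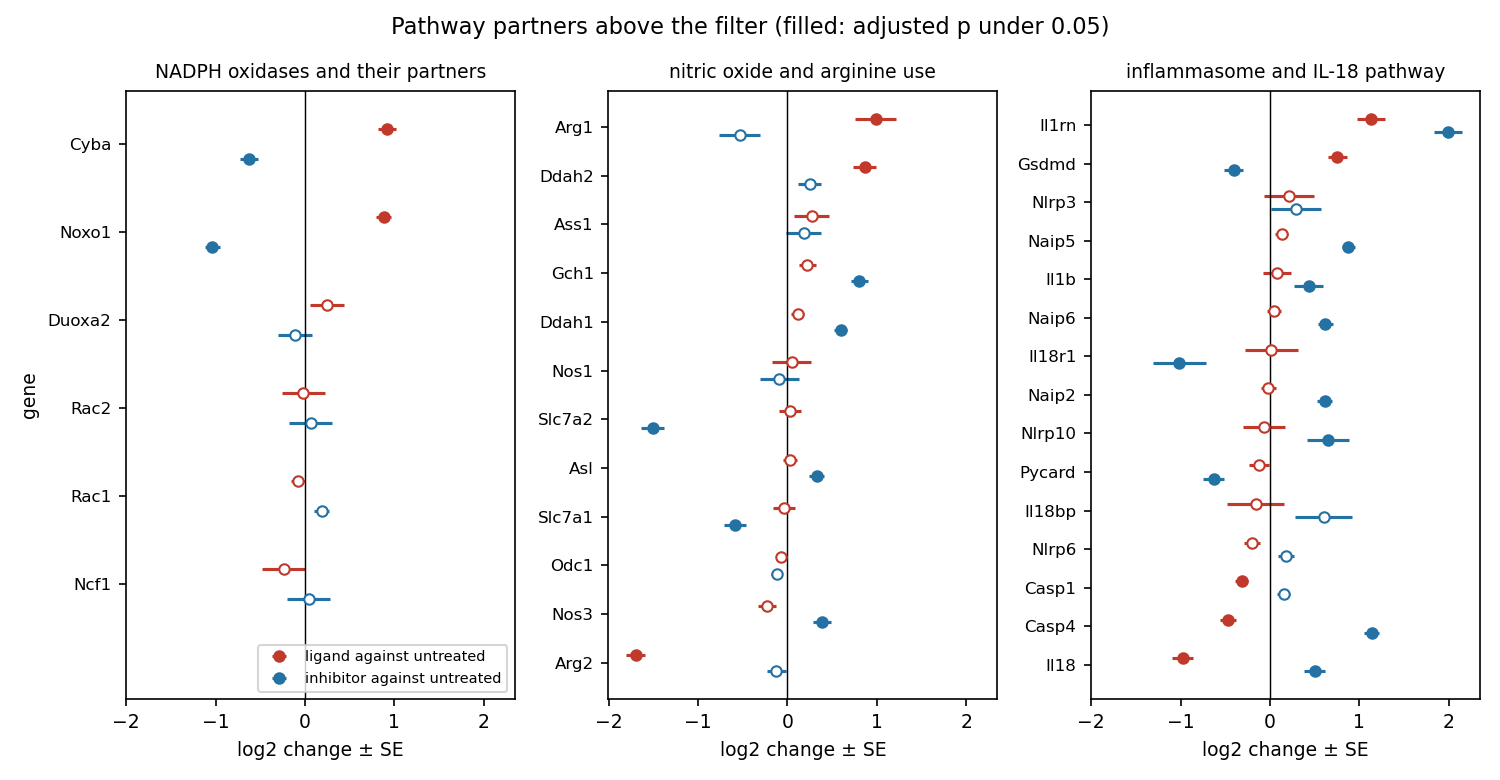
Log2 change ± SE of the tested genes on the lists of NADPH oxidases, nitric oxide and arginine use, and inflammasome and IL-18, for ligand and inhibitor against untreated. Filled points have a limma adjusted p under 0.05. Arg1 and Nlrp10 passed the filter through the group where each was high, so their filled points are no support. Noxo1 and Cyba lie right of 0 with the ligand and left with the inhibitor, and Il18 and Casp4 the reverse.

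Beside Lcn2, Saa1 and Retnlb, the list of other secreted antimicrobial proteins held genes that rose and genes that fell. Reg3g, a lectin that kills Gram-positive bacteria, had 360.2 ± 47.8 in ligand, 3916 ± 297 in inhibitor and 789 ± 91.3 in untreated arrays (SD, n = 3 each). It fell with the ligand by 1.10 and rose with the inhibitor by 2.29 ± 0.10 on the log2 scale. Reg3b, its close relative, was higher with both, by 0.70 ± 0.18 with the ligand and 1.13 ± 0.18 with the inhibitor. Reg3a (-1.32 ± 0.16) and Zg16 (-1.77 ± 0.18), both lectins, fell with the ligand. Ang4, an antimicrobial ribonuclease of Paneth cells, was higher in ligand than in inhibitor arrays (1.15 ± 0.15), as was the lysozyme gene Lyz2 (1.10 ± 0.14). Lyz1, the other lysozyme gene on the list, did not pass in that comparison (0.27 ± 0.18, limma adjusted p 0.237). Of 25 genes on this list 22 had a probe set and 16 were tested. With the ligand 3 were higher and 4 lower (median 0.19 beside 0.05 over all genes). Slpi is among those lower, at 9.57 ± 3.5 in ligand, 24.0 ± 5.0 in inhibitor and 37.4 ± 7.9 in untreated arrays. Only its untreated mean lay above the filter level, so its call is no support. With the inhibitor 2 were higher and 4 lower (median -0.27 beside -0.01). Among all genes 14.8% were higher and 9.37% lower with the ligand, and 21.2% and 23.9% with the inhibitor.

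Saa2 and Retnla lay below the filter. The probe set of Saa2 peaked at 27.0 and that of Retnla, a paralog of Retnlb, at 17.5. Saa3 had 59.8 ± 14.9 in ligand, 35.8 ± 11.1 in inhibitor and 46.2 ± 12.6 in untreated arrays and did not pass against untreated (limma adjusted p 0.383 with the ligand and 0.367 with the inhibitor). Ligand against inhibitor gave 0.55 ± 0.22 (limma adjusted p 0.0476), a call lost in 11 of 19 alternatives, among them without inhibitor replicate 2 (0.157) or 3 (0.124), ligand replicate 2 (0.185) or 3 (0.0575), or untreated replicate 1 (0.0534) or 2 (0.0549).

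The list of NF-kB, IL-17 and IL-22 responses covers signals known to induce Lcn2, Saa1, Nos2, Duox2 and Duoxa2. RNA levels of its genes do not measure the activity of these signals. Over all genes 14.8% were higher and 9.37% lower with the ligand, and 21.2% and 23.9% with the inhibitor. With the ligand 0 of 21 tested genes were higher and 1 lower, Il17rc, a subunit of the IL-17 receptor (-0.52 ± 0.09), with a list median of -0.03 beside 0.05. With the inhibitor 7 were higher and 2 lower (median 0.26 beside -0.01). Among those higher were Il10rb, a subunit of the IL-22 receptor (0.54 ± 0.07), and the transcription factor Stat3 (0.61 ± 0.09). Il10rb did not pass with the mean of probe sets (limma adjusted p 0.0715). The 2 lower were Bcl3, an NF-kB cofactor (-0.57 ± 0.10), and Socs3 (-0.63 ± 0.21, limma adjusted p 0.0289). Of 15 tested microbial sensors 5 were higher and 1 lower with the ligand (median 0.21), Tlr2 leading at 1.11 ± 0.18 and the adaptor Ticam1 lower at -0.55 ± 0.09, and 5 were higher and 2 lower with the inhibitor (median 0.11).

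Genes that answer IL-4 and IL-13, the cytokines known to induce Retnlb, showed 1 of 10 tested genes higher and 1 lower with the ligand (median 0.07) and 2 higher and 3 lower with the inhibitor (median -0.21). Spdef, a goblet cell transcription factor, rose with the ligand (0.69 ± 0.14) and fell with the inhibitor (-1.11 ± 0.14). The rest of the list did not follow it. Clca1 fell with the ligand (-0.77 ± 0.15) and with the inhibitor (-0.68 ± 0.15). Fcgbp fell with the inhibitor (-1.21 ± 0.09) and did not pass with the ligand (limma adjusted p 0.496). Muc2, Tff3 and Agr2 passed against untreated with neither treatment. Of 13 tested genes that remove peroxide or superoxide 1 was higher and 2 lower with the ligand (median -0.15). Cat, the catalase gene, was lower at -0.65 ± 0.12. With the inhibitor 2 were higher and 3 lower (median -0.06), the glutathione peroxidase gene Gpx2 at -0.51 ± 0.11. Over all genes 14.8% were higher and 9.37% lower with the ligand, and 21.2% and 23.9% with the inhibitor.

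The genes whose profile over the 9 arrays was most like that of a called member were found by the root mean square difference of log2 values, each centred on its own mean. For Il18 these were Slc16a5, a monocarboxylate transporter gene, with a difference of 0.09, 0610005C13Rik with 0.10 and Acot4, an acyl-CoA thioesterase gene, with 0.11, where the Il18 profile itself has a root mean square of 0.63. For Pigr they were Fabp1, the liver-type fatty acid binding protein gene, and Atp5h, both with 0.04, and Mycbp with 0.05, where the Pigr profile has 0.15. Slc16a5 had signals of 130.1 ± 18.5 in ligand, 398 ± 30.0 in inhibitor and 277 ± 19.4 in untreated arrays (SD, n = 3 each).

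Depth in the sense of reads does not apply to arrays, and the 3 arrays a group limit the precision. Array medians were signals of 46.1 to 57.9 and a trimmed mean was 350.0 on every array. All 17 epithelial markers passed the filter. With the ligand 3 of them were higher and 1 lower, and with the inhibitor 2 were higher and 4 lower. Shares of all genes were 14.8% and 9.37% with the ligand, and 21.2% and 23.9% with the inhibitor. Of the colon markers with a probe set 4 of 5 lay below the filter, and of the small intestine markers 2 of 7. TGF-beta feedback genes showed 7 of 10 higher and 0 lower with the ligand (median 0.65), beside 14.8% and 9.37% of all genes. With the inhibitor 1 was higher and 4 lower (median -0.08), beside 21.2% and 23.9% of all genes. Summed fibroblast markers were 473 to 504 in ligand, 318 to 376 in inhibitor and 419 to 442 in untreated arrays, with 7 of 12 below the filter, Col1a1 and Col3a1 among them. Summed endothelial markers were 440 to 496 in ligand, 231 to 292 in inhibitor and 253 to 313 in untreated arrays, with 7 of 9 below the filter, Pecam1 and Cdh5 among them. Summed neuronal and glial markers were 115 to 159 in ligand, 123 to 144 in inhibitor and 54.1 to 135 in untreated arrays, with 3 of 5 below it. The part of these differences in the members' results was not tested.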

How the data were processed

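RNA was extracted with the miRNeasy kit and labelled by the MessageAmp Premier 3 prime method, per the labels' protocols. The values deposited by the authors are linear intensities, summarised with MAS5 per the submitters' processing notes. The sources used here give no MAS5 version, scaling step or batch. MAS5 subtracts mismatch probes, which leaves dim signals noisy, and 28.9% of values lay at or below 16. 

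Of 45101 probe sets 34945 had 1 gene symbol in the platform annotation, 932 had several and 9160 none, and 64 controls were left out. Entrez identifiers of 34741 were found in the RefSeq gene table. Signals became log2(signal + 16), which understates changes of dim genes. Probe sets above the 40th percentile of their array on at least 3 arrays were kept, with 1 probe set per gene (highest mean, _x_at last), giving 12941 genes. A linear model with 1 mean per group over 9 arrays was fitted with limma 3.58.1 in R 4.3.3 (6 residual degrees of freedom, intensity trend, 2-sided, Benjamini-Hochberg over all genes at 0.05). "Rose", "fell" and "changed" mean an adjusted p under 0.05. A second fit used every named probe set above the filter (23887). The pipeline was tested on simulated data. The 21 alternatives covered offset, filter, normalization, variance trend, 2-group fit, replicate block, choice of probe set and leaving out each array.

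The main model has no replicate block. The members and the 10 pathway and 7 cell type lists were chosen with earlier results of these data known. The result of 1 pathway list is not reported here. In each list and comparison the named genes are up to 3 called genes with the smallest p, plus fixed partners of the members, and not all of them are printed.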

Additional observations from a re-analysis of the deposited data

How the results depend on the processing

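The 3 Il18 calls kept their direction and stayed under 0.05 in all 20 alternatives, with log2 changes of -1.13 to -0.84 for ligand against untreated, 0.44 to 0.59 for inhibitor against untreated and -1.64 to -1.35 for ligand against inhibitor. The 2 Pigr calls were lost in 9 of 20 (against untreated) and 6 of 20 (against inhibitor), always with the same direction. The number of members called with the ligand against untreated was therefore 1, in place of 2, with no filter and with no intensity trend, and 1 to 2 when 1 array was left out. Against inhibitor it was 1 with the 2-group fit and with no filter, 3 with no intensity trend, where Duoxa2 also passed, and 1 to 2 when 1 array was left out. The counts of member probe sets were 1 where those of members were 1, except without ligand replicate 3. There the dimmer Pigr probe set was called in place of the brighter in both ligand comparisons. Member probe sets called were 3 against untreated with quantile normalization, and 3 against inhibitor with quantile normalization and with median centring. They were 1 to 2 when 1 array was left out. With the replicate number as a block the members called were 2, 1 and 2 for ligand against untreated, inhibitor against untreated and ligand against inhibitor, and the genes called were 3007, 5759 and 7152, so the block changed no call of a member. Same-numbered arrays did not deviate together (correlations across genes of -0.08 to 0.07, with 3 of 9 best matched by their own number), so the numbers are not taken as pairs.

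Testing every probe set gave 9040 calls for inhibitor against untreated (5837 genes) and 11806 for ligand against inhibitor (7186 genes), since 23887 features were tested in place of 12941. Median centring moved the median of all genes by -0.11 for ligand against untreated and by -0.16 for ligand against inhibitor. It turned the split of ligand calls from 1911 higher and 1212 lower to 989 higher and 1731 lower, and that against inhibitor from 4214 higher and 2972 lower to 2856 higher and 3976 lower. Over 139 further gene and comparison pairs, 2678 of 2763 alternatives left the call, or the lack of one, unchanged. In 61 a call was lost, in 24 one was gained and 0 reversed. Of the 139 pairs 114 had no change in any alternative, and some of the pairs had no call to lose. Signals near or below the filter level limit what can be said of Nos2, Lcn2, Saa1, Retnlb and Duoxa2.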
